A study of Mus musculus with 2 samples.

Results

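The RNA levels of 31 genes of glycolysis and of the response to low oxygen were followed through the immune cells of mouse brains that carried GL261 glioma. The genes were picked by symbol from the 31017 gene symbols of the deposited count tables, and all 31 had a row. They comprise 2 transporters (Slc2a1 and Slc16a3), 8 genes of early glycolysis (Hk1, Hk2, Gpi1, Pfkl, Pfkp, Pfkfb3, Aldoa and Tpi1), 6 of late glycolysis (Gapdh, Pgk1, Pgam1, Eno1, Pkm and Ldha), the gate to the mitochondrion (Pdk1), 3 oxygen-sensing genes (Hif1a, Egln1 and Egln3) and 11 genes that low oxygen is known to induce (Bnip3, Bnip3l, Ero1l, Hilpda, Ndrg1, Ankrd37, P4ha1, Ddit4, Adm, Mif and Vegfa). Glycolysis splits glucose into pyruvate in the cytosol, and cells that keep little of the pyruvate for the mitochondrion export it as lactate. When oxygen is scarce, the prolyl hydroxylases of the Egln family no longer mark Hif1a for destruction, and the HIF complex then binds the short DNA letters ACGTG or GCGTG near many glycolytic genes. In gliomas this response is known from both tumor cells and the macrophages that enter the tumor.

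The study sequenced the RNA of single cells from 2 libraries, one of wild-type mice (WT) and one of CD169-DTR hetero mice, in which the diphtheria toxin receptor takes the place of 1 copy of Siglec1, the gene of the macrophage receptor CD169. Mice of both groups were C57BL/6 males of 8 to 12 weeks. They received 100000 GL261 cells, a mouse glioma line, in the brain and 40 ng per g diphtheria toxin on days -1 and 4, and their right hemispheres were taken on day 10. Each library pooled 3 mice and was sorted for living CD45.2+ cells, so there was 1 library per genotype and no difference between the libraries could be tested. In the CD169-DTR library the toxin is meant to kill the cells that make CD169. A difference from WT can therefore reflect which macrophages remained as well as what each cell made, and these cannot be told apart.

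Cells were barcodes with 1000 or more unique molecular identifiers (UMIs, counts of captured RNA molecules) and at most 17% mitochondrial UMIs, which left 10107 cells in the WT library (median 7776 UMIs) and 7604 in the CD169-DTR library (median 8099.5 UMIs). Clusters, built without the 31 genes, were named by marker genes: 4801 and 5443 cells were microglia-like, 2273 and 725 macrophage-like and 1195 and 256 dendritic cell-like in the WT and CD169-DTR libraries, and 7 further classes had 50 or more cells in each library. Endothelial-like, choroid plexus-like and mural or fibroblast-like cells were present although the sort took CD45.2+ cells, and Ptprc, the gene of CD45, was low in them (55.5 and 27.8 counts per 1000000 UMIs of a class, CPM, in endothelial cells against 307 and 303 CPM in microglia). Siglec1 stood at 37.7 CPM in WT and 12.04 CPM in CD169-DTR macrophages, and at 18.96 and 5.57 CPM in microglia. Macrophages were 22.5% of the WT cells and 9.53% of the CD169-DTR cells, with medians of 7222 and 11817 UMIs, and the interferon-responding genes summed to 11088 and 3762 CPM in them. Free RNA in the droplets was estimated at 1.83% and 1.05% of a median cell's UMIs, or 21.8% and 10.5% where lymphocytes with many microglial UMIs stayed in the estimate. The libraries shared 21 cell barcodes.

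Macrophages and microglia, the blood-derived and the resident phagocytes, differed in the levels of some enzyme isoforms and of several hypoxia-induced genes. Levels are CPM, a member's UMIs summed over all cells of a class and divided by the class total, and ratios are on the log2 scale with exact 95% intervals, which cover counting error only. In both libraries 7 of the 30 members with at least 100 UMIs were 1.5-fold or more higher in macrophages (Hk1, Pfkp, Hilpda, Ndrg1, Ankrd37, Ddit4 and Vegfa), while 11.8% of all genes were, and 5 were 1.5-fold or more lower (Hk2, Pfkl, Pdk1, P4ha1 and Adm), while 34% of all genes were. The WT library alone gave 7 higher and 6 lower, against 16.2% and 40% of all genes, and the CD169-DTR library alone 8 and 6 of 31, against 13.4% and 39.4%. The median log2 ratio of the members was 0.13 in the WT and 0.27 in the CD169-DTR library, against -0.36 and -0.37 over all genes tested. When the 2 classes were scaled so that the median gene was equal, 13 members were higher and 4 lower.

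Pfkp, the platelet form of phosphofructokinase (ENSMUSG00000021196, chr13:6579768-6648777, reverse strand, mouse build GRCm38), stood far apart: it was at 86.2 CPM in macrophages and 3.34 CPM in microglia of the WT library and 54.2 and 2.01 CPM in the CD169-DTR library. These are log2 ratios of 4.69 (4.44 to 4.94) and 4.75 (4.45 to 5.07). The liver form of the same enzyme, Pfkl, lay the other way, at 51.8 CPM in macrophages and 87.6 CPM in microglia of the WT library and 53.5 and 91.4 CPM in the CD169-DTR library, with log2 ratios of -0.76 (-0.86 to -0.65) and -0.77 (-0.91 to -0.64). The hexokinases, which trap glucose in the cell, split in the same manner. Hk1 was at 18.3 CPM in macrophages and 7.08 CPM in microglia of the WT library and 12.97 and 6.95 CPM in the CD169-DTR library, log2 ratios 1.37 (1.14 to 1.60) and 0.90 (0.59 to 1.20). Hk2 (ENSMUSG00000000628, chr6:82725025-82774454, reverse strand), the form that low oxygen and insulin are known to induce, was at 65.02 CPM in macrophages and 147 CPM in microglia of the WT library and 60.6 and 148 CPM in the CD169-DTR library, log2 ratios -1.18 (-1.27 to -1.09) and -1.29 (-1.41 to -1.17). So for each of these enzyme pairs 1 gene was higher in macrophages than in microglia and the other lower, in both libraries. Inside macrophages Hk2 still stood above Hk1 in both libraries, and Pfkp and Pfkl were about equal in the CD169-DTR library, at 54.2 and 53.5 CPM.

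Among the hypoxia-induced genes, Vegfa, the vascular growth factor (ENSMUSG00000023951, chr17:46016993-46032369, reverse strand), was at 67.6 CPM in macrophages and 4.29 CPM in microglia of the WT library and 52.4 and 3.58 CPM in the CD169-DTR library, log2 ratios 3.98 (3.75 to 4.21) and 3.87 (3.63 to 4.12). Ndrg1, a stress-induced gene (ENSMUSG00000005125, chr15:66929318-66969640, reverse strand), was at 29.9 CPM in macrophages and 1.30 CPM in microglia of the WT library and 35.2 and 1.19 CPM in the CD169-DTR library, log2 ratios 4.53 (4.13 to 4.95) and 4.89 (4.49 to 5.30). Hilpda, a lipid droplet protein that restrains fat breakdown (ENSMUSG00000043421, chr6:29272488-29275446, forward strand), was at 59.8 CPM in macrophages and 13.4 CPM in microglia of the WT library and 62.1 and 17.3 CPM in the CD169-DTR library, log2 ratios 2.16 (2.02 to 2.31) and 1.84 (1.69 to 1.99). In each of these 3 genes the lower of the 2 macrophage values was above the higher of the 2 microglial values. The Hilpda ratios rested on some of the macrophages: with clusters drawn at resolution 2, where 253 and 110 cells formed a cluster without a class name, they were 0.53 and 0.40, below 1.5-fold, while those of Vegfa were 3.28 and 3.04 and those of Ndrg1 4.23 and 4.21. Ddit4, an inhibitor of mTOR signalling (ENSMUSG00000020108, chr10:59949669-59951834, reverse strand), was at 42.6 CPM in macrophages and 15.4 CPM in microglia of the WT library and 48.4 and 23.7 CPM in the CD169-DTR library, log2 ratios 1.47 (1.32 to 1.62) and 1.03 (0.87 to 1.18). Ankrd37, a small ankyrin repeat gene, was sparse, at 6.78 CPM in macrophages and 3.27 CPM in microglia of the WT library and 7.16 and 3.83 CPM in the CD169-DTR library, log2 ratios 1.05 (0.69 to 1.41) and 0.90 (0.49 to 1.30).

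The opposite set was led by Pdk1 (ENSMUSG00000006494, chr2:71873224-71903858, forward strand), the kinase that shuts pyruvate out of the mitochondrion, at 14.5 CPM in macrophages and 72.9 CPM in microglia of the WT library and 18.2 and 80.9 CPM in the CD169-DTR library, log2 ratios -2.33 (-2.52 to -2.15) and -2.15 (-2.38 to -1.94). P4ha1, the collagen prolyl hydroxylase subunit (ENSMUSG00000019916, chr10:59323296-59373304, forward strand), was at 69.8 CPM in macrophages and 181 CPM in microglia of the WT library and 59.98 and 155 CPM in the CD169-DTR library, log2 ratios -1.37 (-1.46 to -1.29) and -1.37 (-1.50 to -1.25). Thus Pdk1 and P4ha1, which HIF is known to induce, were lower in macrophages, while Vegfa, Ndrg1, Hilpda, Ddit4 and Ankrd37 were higher. Adm, the peptide hormone adrenomedullin, rested on 26 and 11 UMIs in all macrophages, and its log2 ratios were -1.22 (-1.89 to -0.61) and -1.92 (-2.95 to -1.06). Pfkfb3, which makes the activator of phosphofructokinase, had log2 ratios of -0.26 (-0.35 to -0.17) and -0.87 (-1.00 to -0.74), past 1.5-fold in the CD169-DTR library alone. Egln1, an oxygen-sensing hydroxylase, had -0.64 (-0.81 to -0.47) and -0.036 (-0.21 to 0.14), past 1.5-fold in the WT library alone.

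The enzymes of the main glycolytic chain were closer. Gpi1, the glucose-6-phosphate isomerase, was at 212 against 155 CPM in WT, 296 against 165 CPM in CD169-DTR, log2 ratios 0.45 (0.40 to 0.51) and 0.84 (0.78 to 0.90). Aldoa, the aldolase, was at 529 against 409.9 CPM in WT, 619 against 421 CPM in CD169-DTR, with 0.37 and 0.56, and Tpi1, the triosephosphate isomerase, at 254 against 215 CPM in WT, 286 against 234 CPM in CD169-DTR, with 0.24 and 0.29. These 3 genes were higher in macrophages of both libraries, and Gpi1 passed 1.5-fold in the CD169-DTR library alone. Of the late steps, Pgk1, the phosphoglycerate kinase, had log2 ratios of 0.25 and 0.33, Pgam1, the mutase, 0.15 and 0.29, Eno1, the enolase, 0.50 and 0.43, and Pkm, the pyruvate kinase, 0.48 and 0.46. Gapdh, which makes the first NADH of the chain, was at 1086 against 1321 CPM in WT, 1469 against 1472 CPM in CD169-DTR, with -0.28 (-0.31 to -0.26) and -0.003 (-0.029 to 0.023). Ldha, the lactate dehydrogenase, was at 268 against 307 CPM in WT, 334 against 319 CPM in CD169-DTR, with -0.19 (-0.24 to -0.15) and 0.069 (0.014 to 0.12), and so lay on opposite sides of 0 in the 2 libraries. None of these late enzymes reached 1.5-fold.

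The transporters and Hif1a stayed below 1.5-fold between the 2 classes in both libraries. Slc2a1, the main glucose importer, was at 46.4 against 50.5 CPM in WT, 45.1 against 51.9 CPM in CD169-DTR, log2 ratios -0.12 (-0.24 to -0.0076) and -0.20 (-0.35 to -0.055). Slc16a3, the lactate exporter, was at 62.6 against 65.4 CPM in WT, 64.03 against 75.99 CPM in CD169-DTR, log2 ratios -0.064 (-0.16 to 0.035) and -0.25 (-0.37 to -0.12). Hif1a, the oxygen-regulated subunit of HIF, had 0.04 (-0.019 to 0.10) and -0.15 (-0.24 to -0.071), and its RNA says nothing of the protein, which oxygen sets. Egln3 was tested in the CD169-DTR library alone, with -0.36 (-1.08 to 0.29), as it had under 100 UMIs in WT. Of the receptors for removal of mitochondria, Bnip3 had -0.21 and -0.26 and Bnip3l 0.10 and 0.27, while Ero1l, an oxidase of the endoplasmic reticulum, had 0.22 and 0.37, and Mif, a cytokine, -0.30 and 0.069. With the classes scaled to an equal median gene, which raised every ratio, those of Slc2a1 became 0.23 and 0.17, of Slc16a3 0.29 and 0.12 and of Bnip3 0.15 and 0.11, and Gapdh, Ldha, Mif and Pfkfb3 of the WT library and Gapdh, Hif1a, Egln1 and Egln3 of the CD169-DTR library turned above 0 as well, while Pfkl fell short of 1.5-fold with -0.40 and -0.40 and Egln1 and Pfkfb3 fell short in the library that had passed. Gapdh, Aldoa, Tpi1, Pgk1, Pgam1, Eno1, Ldha, Pkm and Mif have processed copies in the mouse genome. How reads that match a copy equally well entered their counts was not tested.

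**Figure D1:**
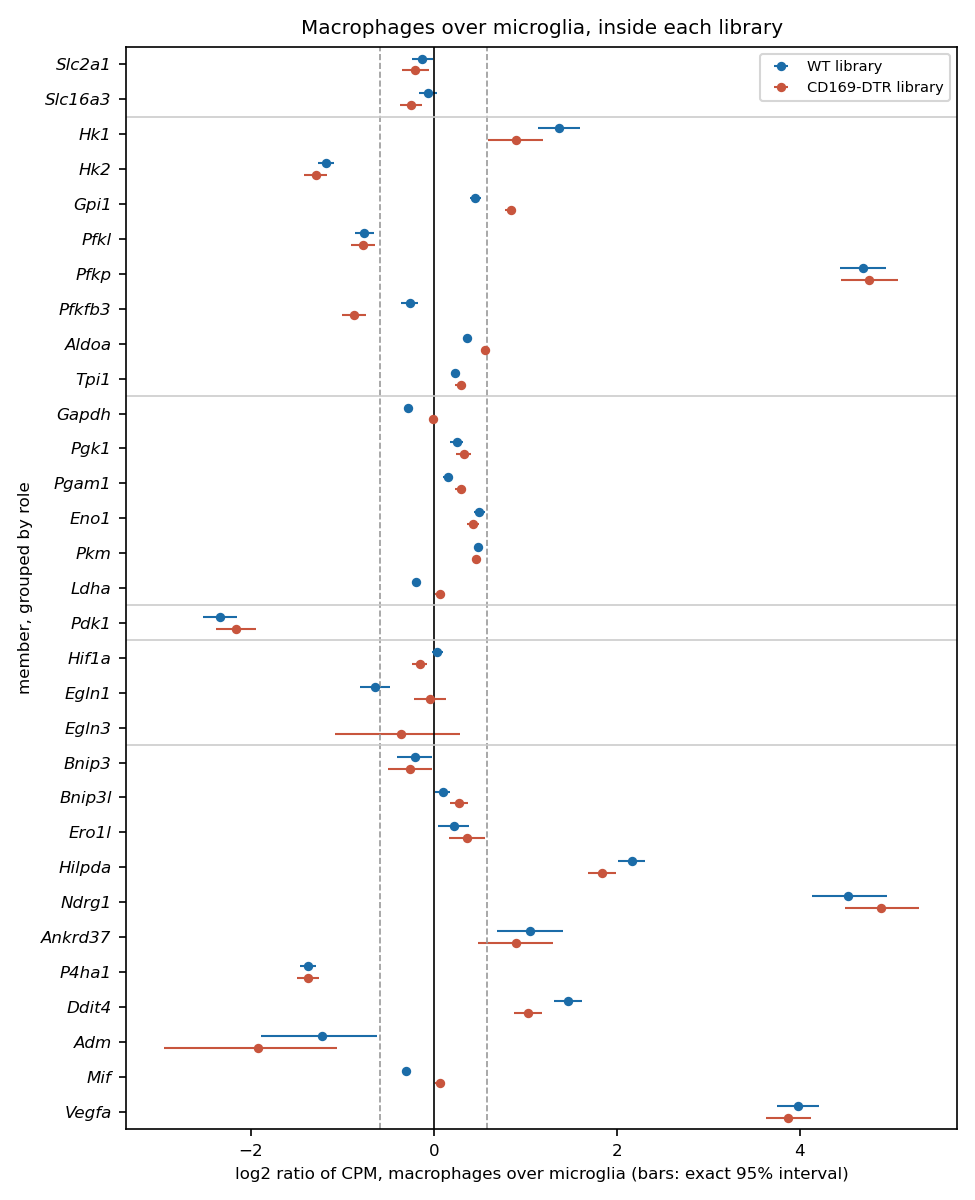
Log2 ratio of CPM in macrophages over microglia (horizontal axis) for each member with 100 or more UMIs (vertical axis, grouped by role), with blue points for the WT library, red points for the CD169-DTR library, bars for exact 95% intervals and dashed lines at 1.5-fold. Pfkp, Ndrg1 and Vegfa lie far to the right, from 3.87 to 4.89, and Pdk1 lies furthest to the left among the members with narrow bars, at -2.33 and -2.15.

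The promoters of Pfkp, Vegfa, Hilpda and Ddit4 are shown because these are the members highest in macrophages over microglia with a promoter in the table that holds the letters that HIF is known to bind. Each is 300 bases from RefSeq (build GRCm38.p6), from 250 before to 50 after a start of transcription, in the direction of the gene, with ACGTG or GCGTG in capitals where they stand on either strand (CACGT and CACGC when read on the printed strand). CACGTG would hold ACGTG on both strands.
Pfkp, chr13:6648722-6649021, reverse strand: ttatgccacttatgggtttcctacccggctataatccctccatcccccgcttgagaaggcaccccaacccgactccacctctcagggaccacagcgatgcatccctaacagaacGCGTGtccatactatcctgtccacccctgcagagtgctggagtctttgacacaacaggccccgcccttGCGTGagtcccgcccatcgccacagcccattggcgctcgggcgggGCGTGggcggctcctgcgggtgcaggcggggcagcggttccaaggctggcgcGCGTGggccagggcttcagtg
Vegfa, chr17:46025114-46025413, reverse strand: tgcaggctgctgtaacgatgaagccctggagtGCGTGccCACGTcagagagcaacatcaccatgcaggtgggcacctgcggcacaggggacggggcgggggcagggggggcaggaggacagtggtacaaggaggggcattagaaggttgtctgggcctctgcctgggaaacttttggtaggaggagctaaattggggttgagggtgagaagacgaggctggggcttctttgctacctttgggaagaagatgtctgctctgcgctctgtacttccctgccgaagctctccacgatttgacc
Hilpda, chr6:29272376-29272675, forward strand: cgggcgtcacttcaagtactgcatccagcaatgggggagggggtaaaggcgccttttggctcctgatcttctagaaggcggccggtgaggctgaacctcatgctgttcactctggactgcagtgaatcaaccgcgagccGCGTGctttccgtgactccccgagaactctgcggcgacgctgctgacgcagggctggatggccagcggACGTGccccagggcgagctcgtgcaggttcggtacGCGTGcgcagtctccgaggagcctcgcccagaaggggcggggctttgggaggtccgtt
Ddit4, chr10:59951721-59952020, reverse strand: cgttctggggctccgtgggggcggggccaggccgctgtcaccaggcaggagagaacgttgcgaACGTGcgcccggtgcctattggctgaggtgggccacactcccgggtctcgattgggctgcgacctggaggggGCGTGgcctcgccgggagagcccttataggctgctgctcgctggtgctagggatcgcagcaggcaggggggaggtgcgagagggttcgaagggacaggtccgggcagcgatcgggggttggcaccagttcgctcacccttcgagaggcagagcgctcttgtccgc
Pfkp has 4 matches to GCGTG, Hilpda 2 to GCGTG and 1 to ACGTG, and Vegfa and Ddit4 1 of each. For Vegfa and Hilpda this is 1 of 2 starts in the table. The printed start of Vegfa lies inside the gene, and its other promoter, at the gene's own start (chr17:46032328-46032627, reverse strand), held 0 matches. The other promoter of Hilpda overlaps the printed one, and its 1 match, to GCGTG, is the first match printed above. Of the 31 members 29 had a promoter in the table (Ero1l under the symbol Ero1a), Bnip3l and Ndrg1 had none, and 27 of the 29 (93.1%) held either motif in at least 1 promoter, all but Gpi1 and Tpi1. Over all 32851 promoters of the same length 43.8% held either motif (19.6% ACGTG, 32.4% GCGTG), and by gene 46.7% did. The members were picked as genes of glycolysis and of the response to low oxygen, so setting their share beside that of all genes is no test. Pdk1, P4ha1 and Hk2, which were lower in macrophages, held a motif as well. A match describes letters in this window and shows no binding.

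Classes differ in UMIs per cell, so the share of cells with at least 1 UMI of a member was also taken after each cell had been thinned to 3000 UMIs. This left out 242 and 213 microglia and 317 and 40 macrophages of the WT and CD169-DTR libraries, as shallower than that. Macrophages had the larger share, with intervals apart in both libraries, for 11 members (Hk1, Gpi1, Pfkp, Aldoa, Pgk1, Eno1, Pkm, Hilpda, Ndrg1, Ddit4 and Vegfa) and microglia for 4 (Hk2, Pfkl, Pdk1 and P4ha1). A Pfkp molecule was seen in 19.9% (18.2 to 21.8) and 14.6% (12.04 to 17.5) of macrophages but in 0.987% (0.721 to 1.32) and 0.402% (0.249 to 0.613) of microglia, where unthinned shares were 34.98% and 40.7% and 2.44% and 1.62%. Vegfa was seen in 12.3% and 12.3% of macrophages and in 1.01% and 0.746% of microglia. In T cells Vegfa was seen in 0.943% (0.258 to 2.40) and 2.43% (0.793 to 5.57), with medians of 6494 and 6655 UMIs against 7555 and 7800 in microglia. These intervals overlapped those of microglia, 1.01% (0.740 to 1.34) and 0.746% (0.531 to 1.02). Whether the microglial shares are background was not tested. Unthinned, Vegfa was seen in 18.96% and 21.9% of macrophages and 2.42% and 2.24% of microglia.

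Ndrg1 was seen in 6.80% and 6.86% of macrophages and 0.329% and 0.344% of microglia (13.3% and 21.5% and 0.771% and 0.698% unthinned), and the microglial share was below the 1.18% and 1.94% of T cells. Hilpda was seen in 8.03% and 9.78% of macrophages and 2.76% and 4.07% of microglia (13.7% and 24.4% and 7.60% and 10.4% unthinned). These hypoxia genes were therefore found in a minority of macrophages at this depth. Hk2 was seen in 36.2% and 34.7% of microglia and 16.8% and 17.2% of macrophages (63.97% and 65.4% and 32.6% and 43.4% unthinned), with 3.77% and 4.37% in T cells. P4ha1 was seen in 40.7% and 35.98% of microglia and 18.97% and 16.1% of macrophages (69.1% and 66.9% and 36.03% and 43.2% unthinned). Pdk1 was seen in 20.3% and 22.8% and 4.45% and 4.67% (42.7% and 47.5% and 9.24% and 17.4% unthinned). All 3 of these were more widespread in microglia.

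Over the 10 classes with 50 or more cells in each library, the class with the highest level was the same in both libraries for 27 of the 31 members, the exceptions being Pfkp, Ldha, Egln1 and Bnip3. A few kinds of cell held most of the peaks: choroid plexus cells for the glycolytic chain, endothelial cells for glucose import and several hypoxia genes, granulocytes for lactate export and HIF genes, and microglia for Hk2, Pfkfb3, Pdk1 and P4ha1. The intervals of the 2 highest classes overlapped for Egln3, Bnip3 and Adm in both libraries, for Hk1, Pfkl, Pfkp, Ldha, Hif1a, Egln1, Ero1l and Ankrd37 in the WT library and for Gpi1 and Pfkfb3 in the CD169-DTR library.

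Slc2a1 was an endothelial gene in these data, at 1782 CPM (1744 to 1821) in the WT and 2169 CPM (2118 to 2220.1) in the CD169-DTR library, followed by mural or fibroblast cells at 395 and 129 CPM and granulocytes at 131 and 109 CPM. Microglia, at 50.5 and 51.9 CPM, and macrophages, at 46.4 and 45.1 CPM, had far less, and T cells had 25.7 and 22.5 CPM. Endothelial cells of the brain are known to carry glucose across the blood-brain barrier through this transporter. Ndrg1 followed the same class, with 451 and 504 CPM in endothelial cells against 55.1 and 76.1 CPM in dendritic cells and 29.9 and 35.2 CPM in macrophages. Ddit4 was at 139 and 165 CPM in endothelial cells and 89.2 and 105 CPM in T cells, Bnip3l at 342 and 381 CPM in endothelial cells, Pfkl at 99.1 and 126 CPM and Ankrd37 at 38.8 and 56.9 CPM. The erythroid marker genes summed to 2850.3 and 2286 CPM in endothelial cells, and their part in the levels of Slc2a1 and Bnip3l, which red cell precursors also make, was not tested.

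Slc16a3 peaked in granulocytes, at 551 CPM (495 to 611) and 603 CPM (553 to 656), above microglia at 65.4 and 75.99 CPM and macrophages at 62.6 and 64.03 CPM. After thinning, 67.5% and 60% of granulocytes had a Slc16a3 molecule (64.9% and 66.5% unthinned) against 3.30% and 0% of T cells, with granulocyte medians of 2921.5 and 3629 UMIs. Thinning left out 91 of the 168 WT and 49 of the 194 CD169-DTR granulocytes as too shallow, so these shares are of the deeper cells. Granulocytes, which live largely on glycolysis, were also the highest class for Hilpda, at 292 and 343 CPM, for Vegfa, at 314 and 161 CPM, and for Hif1a, at 223 and 219.9 CPM. Ero1l was at 59.98 and 54.4 CPM in them, and Egln3 at 7.69 and 12.2 CPM. Vegfa in WT granulocytes was 0.96 (0.65 to 1.28) on the log2 scale above that in CD169-DTR granulocytes, of which there were 168 and 194.

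Choroid plexus cells, the epithelium that secretes cerebrospinal fluid, held the highest levels of most of the chain. Gapdh was at 2331 and 2271 CPM there, Aldoa at 1661 and 1689 CPM, Pkm at 1168 and 1149 CPM, Mif at 876 and 797 CPM and Pgk1 at 709 and 748 CPM. The same class was highest for Gpi1, at 498 and 457 CPM, Tpi1, at 500.2 and 518 CPM, Pgam1, at 647 and 639 CPM, Eno1, at 501 and 566 CPM, and Hk1, at 71.1 and 84.97 CPM. In choroid plexus cells 15 of 29 members were 1.5-fold or more above microglia in both libraries, against 22.6% of all genes. In granulocytes 10 of 29 were, against 11.1%, and in endothelial cells 12 of 30, against 29%.

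Microglia were the highest class for Hk2, at 147 and 148 CPM, for P4ha1, at 181 and 155 CPM, for Pfkfb3, at 88.1 and 95.4 CPM, and for Pdk1, at 72.9 and 80.9 CPM. They were the lowest class for Gpi1 and Pfkp in both libraries. Pfkp instead was highest in dendritic cells of the WT library, at 219 CPM (211 to 227), and in choroid plexus cells of the CD169-DTR library, at 210.2 CPM (194 to 227), with 202 CPM in WT choroid plexus cells and 148 CPM in CD169-DTR dendritic cells. Dendritic cells resembled macrophages in this contrast to microglia: 7 of 30 members were 1.5-fold or more higher (Hk1, Gpi1, Pfkp, Hilpda, Ndrg1, Ddit4 and Vegfa), against 12% of all genes, and 9 were lower, against 37.3%. Of the lymphocytes, T cells had 6 of 29 members above microglia (14.9% of all genes) and 10 below (30.8%), and NK cells 6 of 29 above (14.9%) and 12 below (30.2%). B cells, with 74 and 124 cells, had 2 members above microglia (10.7%) and 16 of 29 below (28.6%). Ldha was highest in T cells of the WT library, at 499.5 CPM, and at 371 CPM in T cells of the CD169-DTR library.

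**Figure D2:**
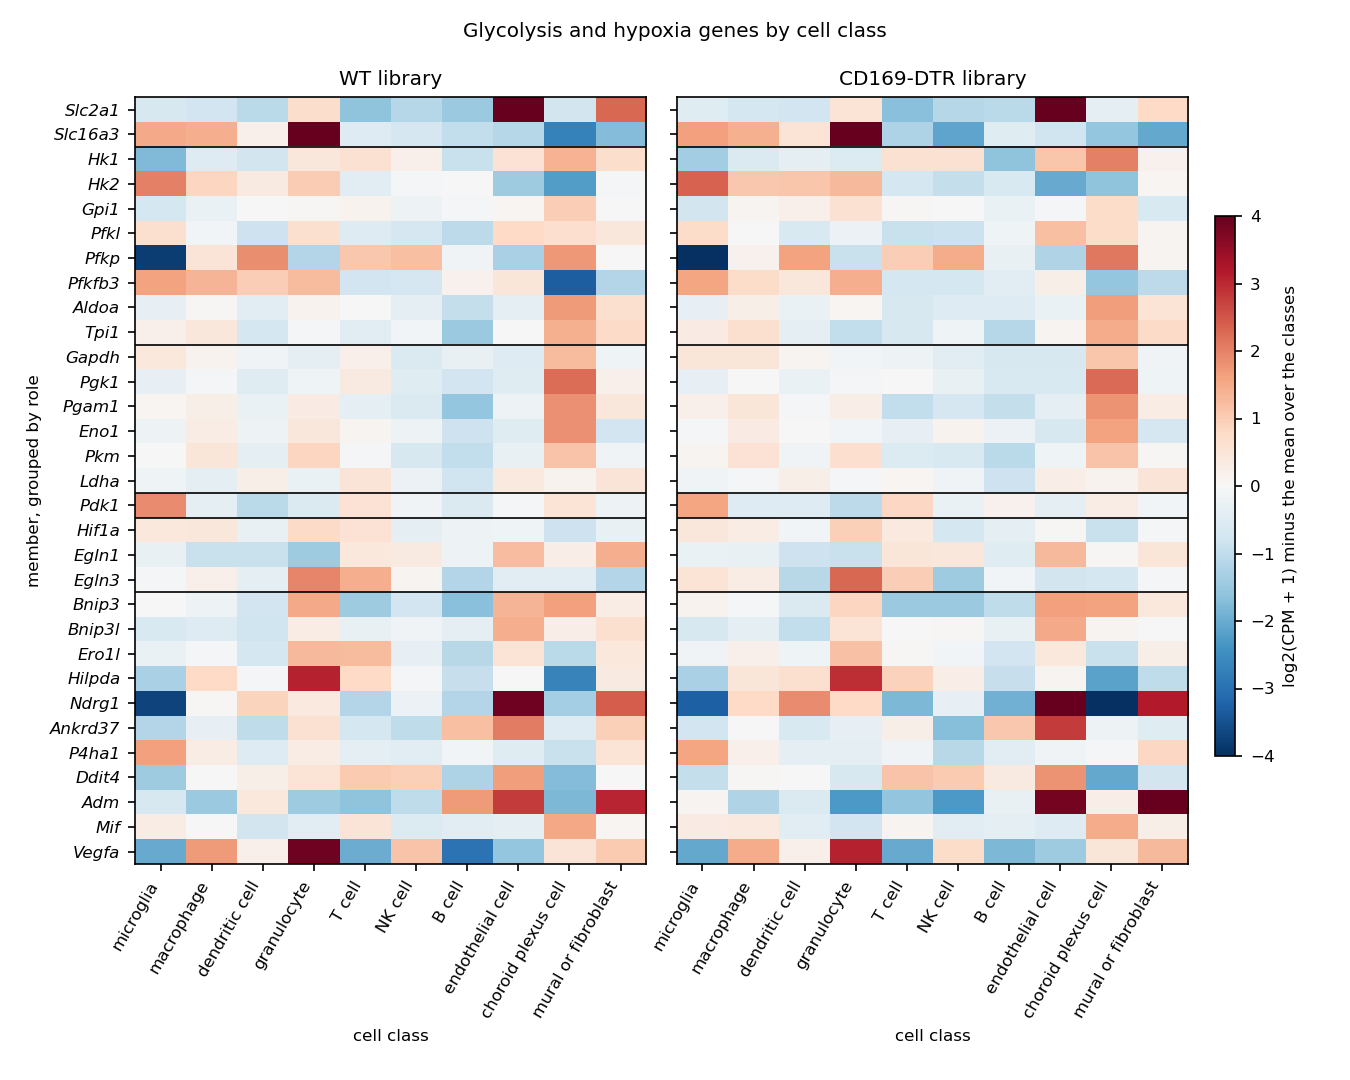
Level of each member (rows, grouped by role) in 10 cell classes (columns) of the WT library (left) and the CD169-DTR library (right), as log2(CPM + 1) minus the member's mean over the classes, with the colour scale clipped at -4 and 4. Dark red cells mark the peaks named in the text, such as Slc2a1 in endothelial cells at 1782 and 2169 CPM and Slc16a3 in granulocytes at 551 and 603 CPM, and Pfkp is dark blue in microglia.

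Within microglia, the glycolytic chain was higher in the disease-associated-like clusters, those that express Cst7, Spp1 and Igf1, than in the homeostatic-like clusters, those that keep P2ry12 and Tmem119. Of 25 members, 11 were 1.5-fold or more higher in both libraries (Slc16a3, Gpi1, Aldoa, Tpi1, Gapdh, Pgk1, Pgam1, Pkm, Ldha, Ero1l and Mif), against 6.45% of all genes, and 3 were lower (Hk1, Pdk1 and Ddit4), against 14.9%. The median log2 ratio of the members was 0.41 in the WT and 0.40 in the CD169-DTR library, and that of all genes -0.22 and -0.24. The disease-associated-like cells held more UMIs (medians 9558 and 10400 in cluster 1 and 14027 and 17457 in cluster 12, against 5161 and 5608.5 in cluster 0 and 6687 and 7487 in cluster 2). Among cells of 5000 to 10000 UMIs alone, 5 of 23 members remained 1.5-fold or more higher (Gapdh, Pgk1, Pkm, Ldha and Mif), against 4.18% of all genes, and 0 lower, against 6.75%.

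Mif, a cytokine that macrophages release in inflammation (ENSMUSG00000033307, chr10:75859353-75860240, reverse strand), differed most between the states, with 506 against 166 CPM in WT and 526 against 153 CPM in CD169-DTR, log2 ratios 1.60 (1.53 to 1.67) and 1.78 (1.71 to 1.84). Gapdh (ENSMUSG00000057666, chr6:125161715-125166467, reverse strand) was at 1679 against 762 CPM in WT and 2088 against 787 CPM in CD169-DTR, log2 ratios 1.14 (1.11 to 1.17) and 1.41 (1.38 to 1.44). Pkm (ENSMUSG00000032294, chr9:59656368-59679375, forward strand), the last enzyme before pyruvate, was at 709.7 against 326 CPM in WT and 815 against 309 CPM in CD169-DTR, log2 ratios 1.12 (1.07 to 1.17) and 1.40 (1.35 to 1.44). Ldha, which turns pyruvate into lactate, was at 389 against 195 CPM in WT and 441 against 191 CPM in CD169-DTR, log2 ratios 0.99 (0.92 to 1.06) and 1.20 (1.14 to 1.27). For each of these 4 genes both libraries put the disease-associated-like cells well above the homeostatic-like cells. Aldoa had log2 ratios of 0.99 and 1.14, Pgk1 of 1.05 and 1.18, Tpi1 of 0.61 and 0.84, Pgam1 of 0.67 and 0.97 and Gpi1 of 0.63 and 0.78. Slc16a3, the lactate exporter, had 0.62 and 0.78, and Hif1a 0.79 and 0.53. Eno1 had 0.41 and 0.98, past 1.5-fold in the CD169-DTR library alone.

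The entry of the pathway did not share this pattern. Hk2 was at 132 against 194 CPM in WT and 136 against 191 CPM in CD169-DTR, log2 ratios -0.56 (-0.65 to -0.47) and -0.49 (-0.57 to -0.41), and Hk1 had -0.94 (-1.41 to -0.48) and -0.62 (-1.03 to -0.22). Pdk1, which holds pyruvate back from the mitochondrion, was at 61.2 against 109.6 CPM in WT and 74.3 against 115 CPM in CD169-DTR, log2 ratios -0.84 (-0.97 to -0.71) and -0.63 (-0.74 to -0.52). Ddit4 was at 12.8 against 23.9 CPM in WT and 13.1 against 42.8 CPM in CD169-DTR, log2 ratios -0.90 (-1.18 to -0.62) and -1.71 (-1.95 to -1.48). Cluster 0 was the highest of the 9 microglial clusters for Hk1, Pdk1, Bnip3l and Ddit4 in both libraries. The intervals of the 2 highest clusters overlapped for Hk1 in both libraries, for Bnip3l and Ddit4 in the WT library and for Pdk1 in the CD169-DTR library. The erythroid marker genes summed to 3837 and 2255 CPM in cluster 0 and to 1.35 and 1.74 CPM in cluster 2, the other homeostatic-like cluster, where Bnip3l was at 80.1 and 94.6 CPM against 119 and 129 CPM in cluster 0, and their part in the Bnip3l level was not tested.

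Single clusters were set against cluster 0. Cluster 12, led by Igf1 and Spp1, had 13 of 24 members higher in both libraries (10.4% of all genes) and 3 lower, namely Hk2, Pdk1 and Ddit4 (30.5%). It was the highest microglial cluster for 13 members in the WT and 17 in the CD169-DTR library, and the highest cluster was the same in both libraries for 24 members. Cluster 1, led by C1qa and Cst7, had 12 higher (7.13%) and 2 lower (15.9%). Cluster 2 had 4 higher, Gapdh, Pkm, Hif1a and Mif (2.66%), and 0 lower (2.48%). In the interferon-responding cluster 6, 11 were higher (9.4%), among them P4ha1 at 279 and 259 CPM against 169 and 161 CPM in cluster 0. The mitotic cluster 8 had 6 higher (17.2%) and 5 lower (16.8%), the mitotic cluster 17 7 of 23 higher (11.7%), and the S-phase cluster 11 10 of 23 (15%).

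Cluster 7, with high cytokine and immediate-early genes, had a different set, with 6 members higher (Slc2a1, Pfkfb3, Hif1a, Ero1l, Hilpda and Mif), against 10.8% of all genes, and 3 lower (Hk1, Pdk1 and Ddit4), against 24.7%. Slc2a1 was at 102 and 99.2 CPM there and 39.6 and 37.7 CPM in cluster 0. Hilpda was at 63.3 and 64.3 CPM against 9.76 and 11.6 CPM. Pfkfb3 was at 147 and 175 CPM against 86.95 and 96.1 CPM. The glucose importer, the lipid droplet gene and the activator of phosphofructokinase thus marked another state than the enzymes of the chain. Genes that handling of tissue is known to induce summed to 24561 and 27837 CPM in cluster 7 against 8414 and 10282 CPM in cluster 0, and their part in these values was not tested.

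**Figure D3:**
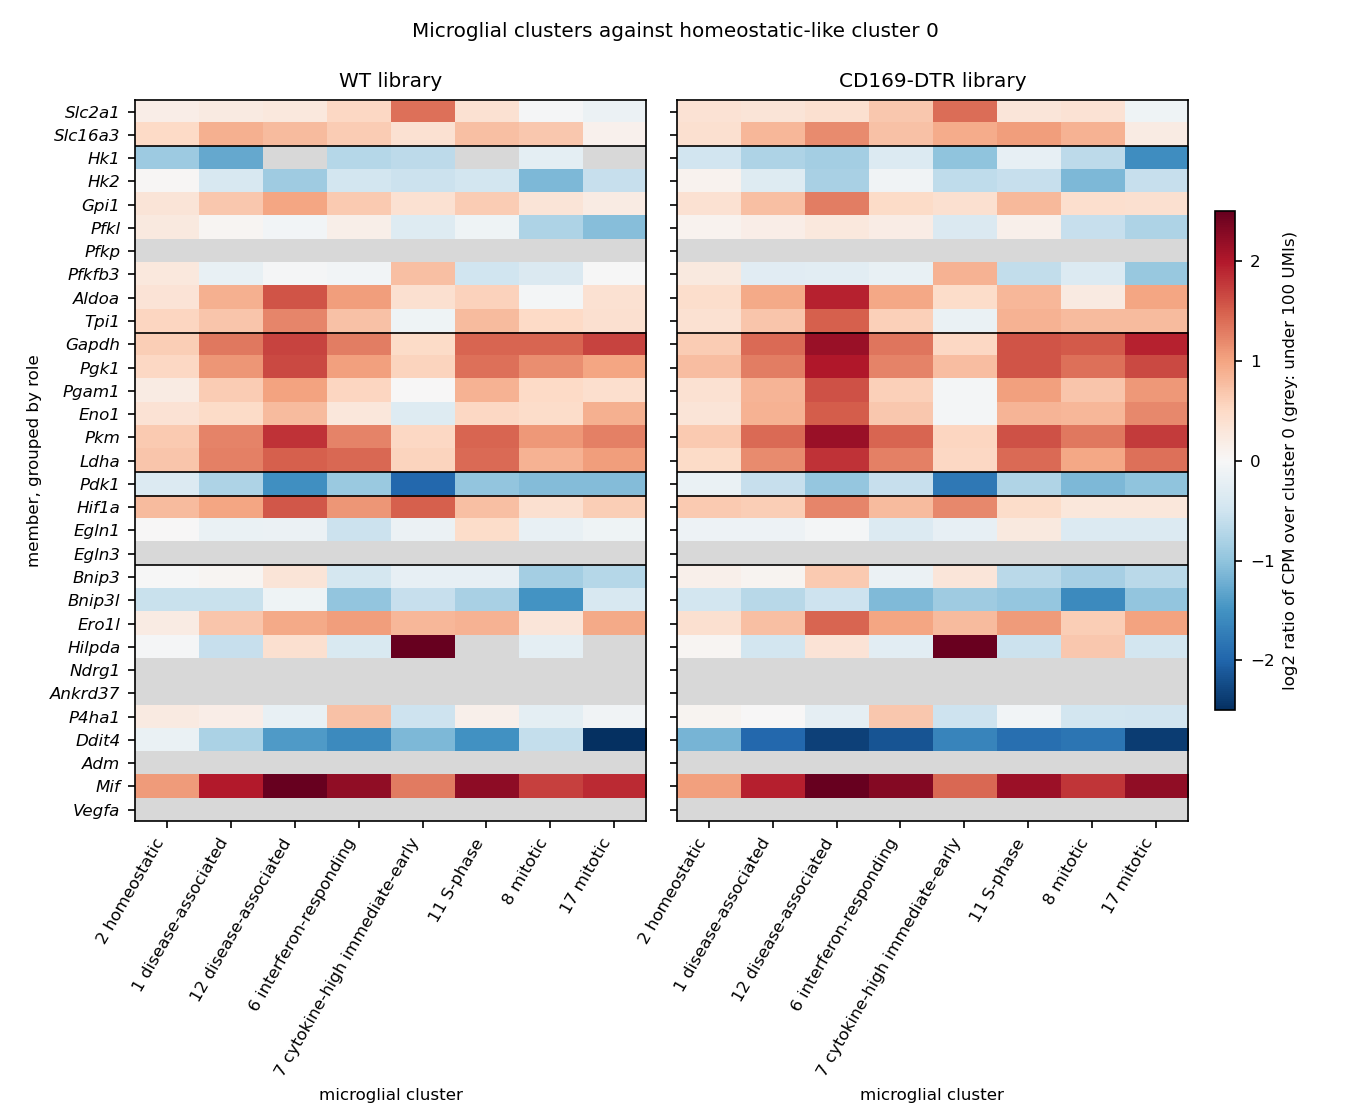
Log2 ratio of each member's CPM (rows, grouped by role) in 8 microglial clusters (columns) over homeostatic-like cluster 0, for the WT library (left) and the CD169-DTR library (right), with the colour scale clipped at -2.5 and 2.5 and grey where the 2 sums held under 100 UMIs. The enzymes from Aldoa to Ldha and Mif are red in the disease-associated-like clusters 1 and 12, and Slc2a1 and Hilpda are reddest in cluster 7.

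The macrophages fell into 3 clusters, and the 11 hypoxia-induced genes did not share 1 order over them. In both libraries 3 of them (Hilpda, Ankrd37 and Vegfa) were highest in cluster 4, 2 (Bnip3l and Ddit4) in cluster 15 and 1 (Mif) in cluster 3. Cluster 4, monocyte-like, held 898 and 241 cells of the WT and CD169-DTR libraries, cluster 3, tumor-associated-like, 1165 and 333, and cluster 15, led by Ear2, Adgre4, Treml4, Cd300e and Ace and left without a state name, 210 and 151. Cluster 3 over cluster 4 gave 7 of 28 members 1.5-fold or more lower in both libraries (Slc2a1, Slc16a3, Pfkp, Pgk1, Hilpda, Ndrg1 and Vegfa), against 8.71% of all genes, and 1 higher (Mif), against 10.4%. Cluster 15 over cluster 4 gave 6 of 25 lower (Slc2a1, Pfkp, Hif1a, Hilpda, Mif and Vegfa), against 13.1%, and 2 higher (Bnip3l and Ddit4), against 13.9%.

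Hilpda was at 103, 22.03 and 18.3 CPM in clusters 4, 3 and 15 of the WT library and 144, 28.1 and 15.02 CPM in those of the CD169-DTR library. Vegfa was at 92.9, 51.7 and 12.2 CPM in clusters 4, 3 and 15 of the WT library and 105, 32 and 15.8 CPM in those of the CD169-DTR library. For both genes cluster 4 was the highest in each library and cluster 15 the lowest. Pfkp was at 129.7, 43.5 and 67.2 CPM in clusters 4, 3 and 15 of the WT library and 93.4, 34.03 and 48.2 CPM in those of the CD169-DTR library, and Slc2a1 at 62.8, 32.3 and 29.3 CPM in clusters 4, 3 and 15 of the WT library and 76.6, 31.3 and 30.8 CPM in those of the CD169-DTR library. Ndrg1 broke the order, at 33.2, 19.1 and 66.6 CPM in clusters 4, 3 and 15 of the WT library and 60.4, 18.1 and 49.03 CPM in those of the CD169-DTR library, so that cluster 15 was highest in WT and cluster 4 in CD169-DTR. Mif was at 191, 454 and 107 CPM in clusters 4, 3 and 15 of the WT library and 281, 489 and 92.5 CPM in those of the CD169-DTR library, highest in the tumor-associated-like cells. Bnip3l, the mitophagy receptor that red cells also use, was at 72.1, 86.8 and 180.1 CPM in clusters 4, 3 and 15 of the WT library and 80.96, 91.9 and 196 CPM in those of the CD169-DTR library. In cluster 15 the erythroid marker genes summed to 3434 CPM in WT and 0 CPM in CD169-DTR. Their part in the Bnip3l level was not tested. Ddit4 was at 31.8, 44.1 and 92.2 CPM in clusters 4, 3 and 15 of the WT library and 47.2, 36.8 and 100.4 CPM in those of the CD169-DTR library, and Hif1a at 225, 152 and 75.7 CPM in clusters 4, 3 and 15 of the WT library and 234, 102 and 85.4 CPM in those of the CD169-DTR library. Median UMIs per cell were 9187 and 12081 in cluster 4, 4876 and 16031 in cluster 3 and 8200 and 7420 in cluster 15.

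Part of cluster 4 held most of its Hilpda. At resolution 2, chosen for description after the values were seen, 243 of 898 WT and 105 of 241 CD169-DTR cells of cluster 4 lay in a cluster led by Clec4e, Cxcl2, Lgals3, Clec4d and Adora2b, which was left without a class name. Among macrophages of this cluster Hilpda was at 261 and 269 CPM in the WT and CD169-DTR libraries, against 15.6 and 9.59 CPM in the other cells of cluster 4. Vegfa was at 195 and 174 CPM against 36.7 and 34.3 CPM, Ndrg1 at 57.99 and 105 CPM against 20.3 and 12.3 CPM and the lactate exporter Slc16a3 at 135 and 168 CPM against 52.4 and 69.2 CPM. Each of these 4 was higher there in both libraries. Pfkp, at 100.4 and 80.2 CPM against 147 and 106 CPM, P4ha1, at 50.2 and 48.9 CPM against 73.4 and 98.7 CPM, and Ddit4, at 18.5 and 36.5 CPM against 38.6 and 58.2 CPM, were lower there. Clusters are drawn from the same cells, so these values are a description.

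**Figure D4:**
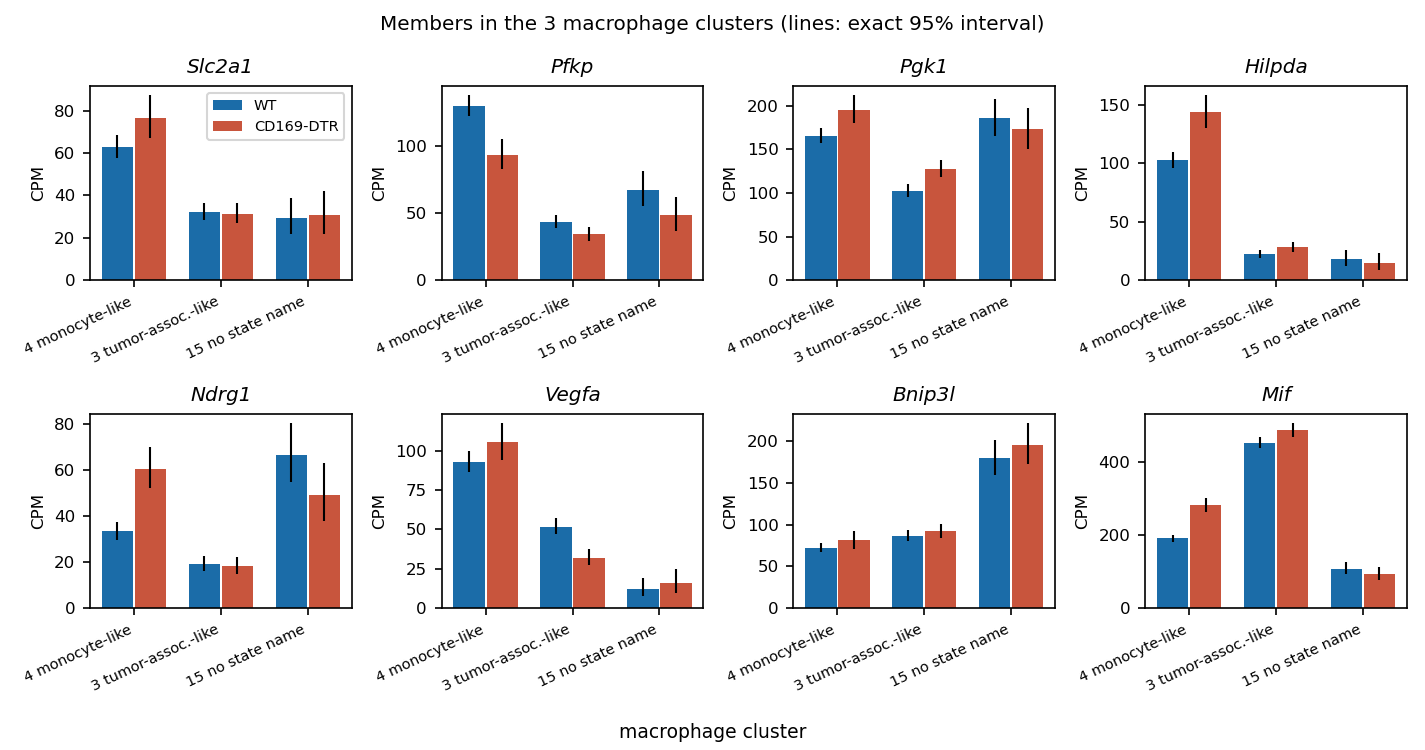
CPM (vertical axis, each panel with its own scale from 0) of 8 members in macrophage clusters 4, 3 and 15, with blue bars for the WT and red bars for the CD169-DTR library and lines for exact 95% intervals. Hilpda goes from 103 and 144 CPM in cluster 4 to 18.3 and 15.02 CPM in cluster 15, while Mif is tallest in cluster 3 and Bnip3l in cluster 15.

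The comparison the study was designed for is that of WT mice with CD169-DTR mice, in which the toxin targets CD169+ cells. A Siglec1 molecule was seen in 93 of the 725 CD169-DTR macrophages and in 526 of the 2273 WT macrophages, which had fewer UMIs per cell (medians 11817 and 7222). Whether the cells with such a molecule carried CD169 or held free RNA was not tested. Over the macrophages as a whole few members passed 1.5-fold between the 2 libraries, and values inside the clusters follow below. In macrophages 1 of 29 members, Pfkp, was 1.5-fold or more higher in the WT library, against 5.87% of all genes, and 1, Egln1, was lower, against 4.2%, shares from which nothing about the members follows. Their median log2 ratio was -0.15, that of all genes -0.046. Pfkp was at 86.2 CPM in the WT and 54.2 CPM in the CD169-DTR library, log2 ratio 0.67 (0.53 to 0.82). Inside clusters 3, 4 and 15 the ratio was 0.35 (0.092 to 0.62), 0.47 (0.28 to 0.67) and 0.48 (0.013 to 0.95), and among macrophages of 5000 to 10000 UMIs 0.39, each below 1.5-fold. Pfkp was also higher in free RNA of the WT library, at 66.5 against 25.1 CPM. Egln1, the main oxygen sensor of the Egln family, was at 20.5 CPM in the WT and 33.4 CPM in the CD169-DTR library, log2 ratio -0.71 (-0.92 to -0.49). Its ratio was -0.56 (-0.86 to -0.25) in cluster 3 and -1.01 (-1.40 to -0.62) in cluster 4, and -1.18 among macrophages of 5000 to 10000 UMIs.

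Short of 1.5-fold, several chain enzymes lay lower in WT macrophages and some regulators higher. Gpi1 was at 212 CPM in the WT and 296 CPM in the CD169-DTR library, log2 ratio -0.48 (-0.55 to -0.41), Gapdh at 1086 CPM in the WT and 1469 CPM in the CD169-DTR library, log2 ratio -0.44 (-0.47 to -0.40), and Eno1 at 172 CPM in the WT and 234 CPM in the CD169-DTR library, log2 ratio -0.45 (-0.53 to -0.37). Ldha had -0.32 (-0.38 to -0.25) and Mif -0.32 (-0.38 to -0.26). On the other side, Hk1 was at 18.3 CPM in the WT and 12.97 CPM in the CD169-DTR library, log2 ratio 0.49 (0.19 to 0.80), Pfkfb3 had 0.49 (0.34 to 0.64), Vegfa 0.37 (0.22 to 0.52) and Hif1a 0.36 (0.26 to 0.45). Intervals of these ratios excluded 0 for counting error, which leaves out the differences between mice that 1 library per genotype cannot show. The macrophages of the 2 libraries also differed in depth, in their interferon-responding genes and in the shares of the clusters, 51.3% and 45.9% in cluster 3, 39.5% and 33.2% in cluster 4 and 9.24% and 20.8% in cluster 15.

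Inside the monocyte-like cluster 4, 6 of 28 members were 1.5-fold or more lower in WT (Pfkl, Tpi1, Egln1, Bnip3, Ero1l and Ndrg1), against 8.35% of all genes, and 0 were higher, against 4.93%. The median log2 ratio there was -0.45 over members and -0.13 over all genes. Ndrg1 was at 33.2 CPM in the WT and 60.4 CPM in the CD169-DTR library, log2 ratio -0.86 (-1.14 to -0.59), and Tpi1 at 196 CPM in the WT and 309 CPM in the CD169-DTR library, log2 ratio -0.65 (-0.77 to -0.54). Bnip3 had -0.75 (-1.18 to -0.30), Ero1l -0.66 (-1.01 to -0.31) and Pfkl -0.62 (-0.89 to -0.35). Cluster 4 was not the same mix of cells in both libraries. The part set apart at resolution 2, rich in Ndrg1, was 243 of its 898 WT and 105 of its 241 CD169-DTR cells. Ndrg1 was lower in WT inside that part but higher in WT in the rest of cluster 4. How far this mix made up the ratios of cluster 4 was not tested. In the tumor-associated-like cluster 3 the picture was another: 3 of 28 were higher in WT (Hk1, P4ha1 and Vegfa), against 13.1%, and 1 lower (Gpi1), against 2.88%. Vegfa was at 51.7 CPM in the WT and 32 CPM in the CD169-DTR library, log2 ratio 0.69 (0.43 to 0.96), and in cluster 4 its ratio was -0.18 (-0.37 to 0.013). In both parts of cluster 4 described above, however, Vegfa was somewhat higher in WT, so the sign for the whole cluster did not hold inside its parts. P4ha1 had 0.63 (0.43 to 0.84) in cluster 3 and -0.17 (-0.40 to 0.063) in cluster 4. Whether the clusters differed in their ratios was not tested. The median depth of cluster 3 was 4876 UMIs in the WT and 16031 in the CD169-DTR library. In cluster 15, 0 of 19 were higher (3.01%) and 0 lower (5.36%).

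In microglia 1 of 31 members, Pfkp, was 1.5-fold or more higher in WT, against 1.7% of all genes, and 2, Egln3 and Ddit4, were lower, against 1.32%. The medians were -0.093 over members and -0.042 over all genes. Pfkp was at 3.34 CPM in the WT and 2.01 CPM in the CD169-DTR library, log2 ratio 0.73 (0.36 to 1.11), and 0.36 with free RNA subtracted. Egln3, an oxygen-sensing hydroxylase, was at 1.18 CPM in the WT and 2.93 CPM in the CD169-DTR library, log2 ratio -1.31 (-1.79 to -0.84). Ddit4 was at 15.4 CPM in the WT and 23.7 CPM in the CD169-DTR library, log2 ratio -0.62 (-0.76 to -0.49). The Ddit4 ratio was furthest from 0 in the homeostatic-like cluster 0 among clusters 0, 1 and 2, with 25.1 CPM in the WT and 54.9 CPM in the CD169-DTR library, log2 ratio -1.13 (-1.38 to -0.88), and clusters 1 and 2 had 0.046 (-0.32 to 0.41) and -0.13 (-0.46 to 0.21). Eno1 was lower in WT microglia, at 121 CPM in the WT and 174 CPM in the CD169-DTR library, log2 ratio -0.52 (-0.57 to -0.47), and passed 1.5-fold in the disease-associated-like clusters 1 and 12, with -0.64 (-0.74 to -0.53) and -0.96 (-1.09 to -0.83). It was also lower in WT dendritic cells, -0.57 (-0.70 to -0.45), NK cells, -0.73 (-1.04 to -0.42), and B cells, -1.00 (-1.53 to -0.48), but at 0.048 (-0.17 to 0.27) in T cells. The near-identical gene Eno1b, with which Eno1 can share reads, was at 0.766 and 1.30 CPM in microglia, so the counts of Eno1 are uncertain by what was lost between the copies.

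By microglial cluster, no member was 1.5-fold or more higher in WT except Pfkfb3 in the mitotic cluster 17, and few were lower. In the homeostatic-like cluster 0, 0 of 25 were higher and 1 (Ddit4) lower, against 0.722% and 0.963% of all genes, and in cluster 2 0 and 0, against 0.953% and 0.917%. Clusters 1, 6 and 12 each had 0 higher and 1 (Eno1) lower, against 0.963% and 1.24%, 1.61% and 1.75% and 3.49% and 1.68%. In cluster 7 3 were lower, the lactate exporter Slc16a3, Bnip3 and Ddit4, against 1.32% and 2.3%, and in the mitotic cluster 8 2, Eno1 and Hilpda, against 1.8% and 1.55%. The S-phase cluster 11 had 0 of 21 in either direction, against 1.22% and 1.24%, and cluster 17 Pfkfb3 higher and Pgam1 lower of 18, against 2.96% and 2.86%. The median log2 ratio in cluster 12 was -0.33 over members and 0.0014 over all genes.

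Other classes gave few members past 1.5-fold. Endothelial cells had 0 of 27 higher and 0 lower in WT, against 2.07% and 1.29% of all genes. Dendritic cells had 1 of 29 higher, Adm (6.06%), and 2 lower, Pdk1 with -1.12 (-1.55 to -0.67) and Hilpda with -1.11 (-1.33 to -0.89) (5.6%). T cells had 3 of 23 higher, Hk2, Pgam1 and Ero1l (10.2%), and 1 lower, Pdk1 with -0.76 (-1.18 to -0.32) (2.26%). Granulocytes had Tpi1 and Vegfa of 18 higher (12.1%) and Gpi1 lower (11%). NK cells had P4ha1 of 18 higher (7.13%) and Eno1 and Hilpda lower (3.12%), and B cells 0 of 10 higher (10.5%) and Eno1 lower (7.51%). Choroid plexus cells had 0 of 21 higher (1.32%) and P4ha1 lower (6.24%), and mural or fibroblast cells Slc2a1 and Egln1 of 16 higher (8.42%) and 0 lower (5.83%).

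**Figure D5:**
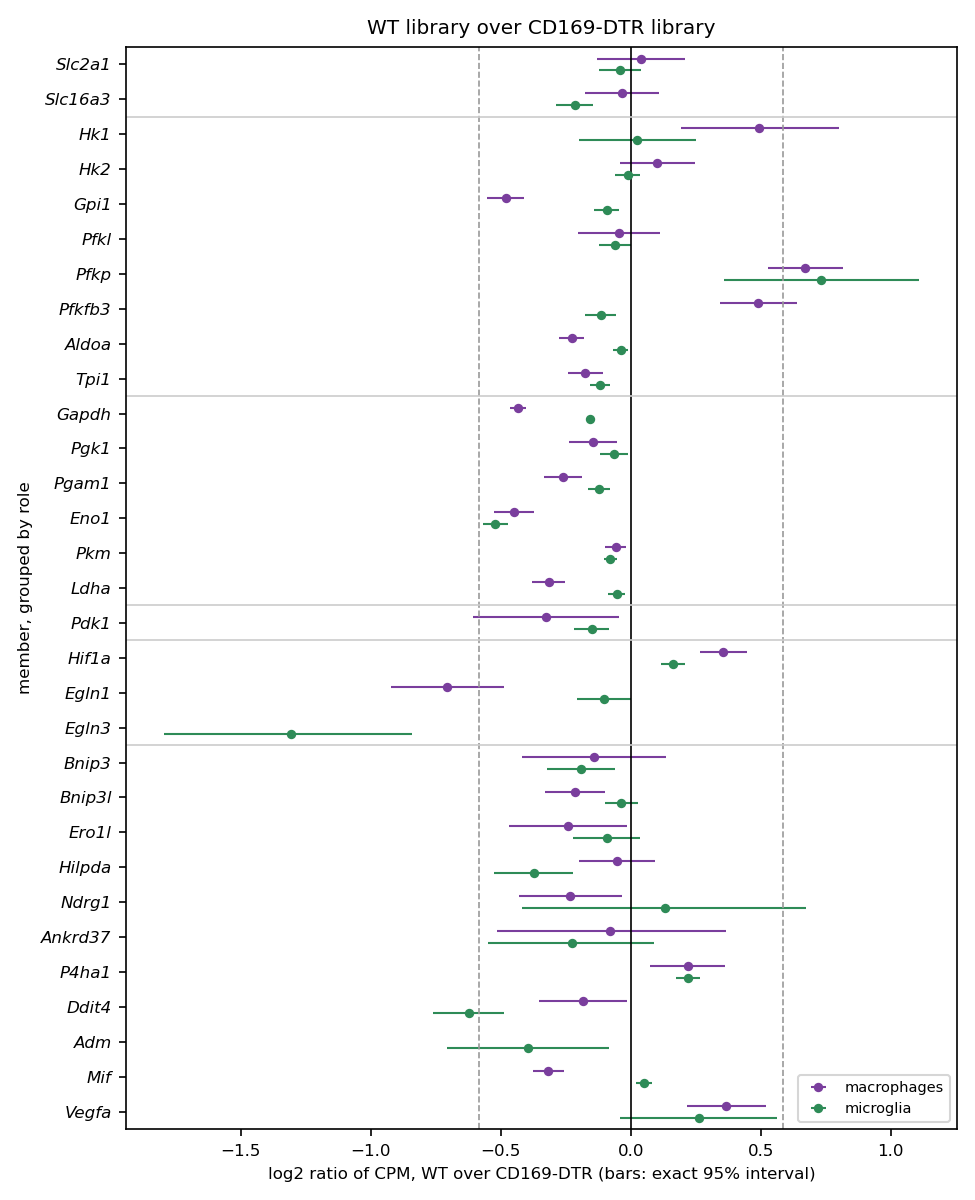
Log2 ratio of CPM in the WT over the CD169-DTR library (horizontal axis) for each member with 100 or more UMIs (vertical axis, grouped by role), with purple points for macrophages, green points for microglia, bars for exact 95% intervals and dashed lines at 1.5-fold. Most points lie between the dashed lines, Pfkp lies to the right in both classes, and Egln3 of microglia lies furthest to the left, at -1.31.

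The contrast of macrophages and microglia was set beside 68 other genes of glycolysis and the hypoxia response. Of 49 with enough UMIs, 9 were 1.5-fold or more higher in macrophages of both libraries and 13 lower, where all genes gave 11.8% and 34%. Past 2-fold in both libraries were Anxa1, which limits inflammation, at 5.94 and 4.80 on the log2 scale, Cxcr4, a chemokine receptor, at 4.57 and 4.96, Bhlhe40, a transcriptional repressor, at 3.30 and 3.20, Hmox1, which degrades heme, at 1.68 and 1.69, Eno3, the muscle enolase, at 1.46 and 1.89, and Pygl, which opens glycogen, at 1.30 and 1.72. Those lower past 2-fold included Slc2a5, the fructose transporter, at -3.64 and -4.12, Ldhb, the other lactate dehydrogenase subunit, at -3.15 and -3.08, Lox, at -3.04 and -4.53, Plod1, at -2.15 and -1.71, Slc16a1, a carrier of lactate and pyruvate, at -1.41 and -1.23, and Insig2, at -1.28 and -1.26. Ldhb was at 57.05 CPM in macrophages and 506 CPM in microglia of the WT library and at 59.05 and 499.8 CPM in the CD169-DTR library, so the lactate dehydrogenases Ldha and Ldhb differed between the classes in unlike degree.

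Between WT and CD169-DTR macrophages 4 of 43 other pathway genes were 1.5-fold or more higher (among them Slc2a6, Hk3 and Pdk3) and 3 lower (Eno3, Pygl and Mt1), beside 5.87% and 4.2% of all genes. Among the highest log2 ratios were those of Hk3, a hexokinase of myeloid cells, 0.84, Pdk3, 0.69, Slc2a6, a hexose transporter, 0.62, and Anxa1, 0.49. The lowest were those of Mt1, a metal-binding protein, -0.90, Eno3, -0.75, Pygl, -0.61, Mxi1, -0.57, and Plod1, -0.47.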

How the data were processed

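The authors deposited 1 unfiltered matrix of UMI counts per library (31053 gene rows by 6794880 barcodes), which per the file headers and the submitters' processing notes came from Cell Ranger 3.1.0 on build mm10. Libraries were made with 10x Genomics 3' chemistry, so levels count molecules and are not per length. The tables held 101808996 UMIs for WT and 84065489 for CD169-DTR. Barcodes with 1000 or more UMIs (10356 and 7822) were kept unless over 17% of UMIs were mitochondrial (249 and 218). The members then held 463212 and 422803 UMIs. Rows of the same symbol were summed, which merged 2 rows of Aldoa.

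Libraries were integrated with Seurat 5.3.0 in R 4.3.3 (2000 variable features without the members and 68 other pathway genes, 50 dimensions) and clustered on 30 dimensions at resolution 1. A cluster was named from 3 or more markers of a list, each with 10 or more UMIs and at least 25% of its highest level, and a check of its 10 leading genes; these thresholds were set after the data had been seen. Plasmacytoid dendritic cells, mast cells and unnamed cells had under 50 cells in a library and were left out. Doublets were not removed: Scrublet in scanpy 1.11.5 called 2.75% of WT and 0.0132% of CD169-DTR cells and so did not work in the latter, and the 8% with the highest scores were removed as an alternative. Members and gene lists were chosen with earlier results of these data known.

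With 1 library per genotype nothing was tested. CPM had exact Poisson, shares Clopper-Pearson and ratios exact conditional 95% intervals (scipy 1.17.1), which cover counting error only. Comparisons used genes with 100 or more UMIs in the 2 sums and a fold of 1.5. Free RNA was profiled from barcodes of 10 to 100 UMIs and scaled by the UMIs of microglial markers in lymphocytes, without the 10% of lymphocytes that held most of them. Coordinates are from GENCODE M21, which held 30934 of the 31053 gene rows and all 32 rows of the members. Every member is named by role; of the other pathway genes, those past 2-fold in both libraries between macrophages and microglia and the 5 highest and 5 lowest of WT over CD169-DTR in macrophages are named, except 1 that is not reported here. The intervals of ratios and the thinning were tested on simulated data that held counting error only. Spread between cells or mice and free RNA were not simulated, so this checks the calculation and not how well the intervals fit these data.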

Additional observations from a re-analysis of the deposited data

Results flagged for a closer look

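The following members lay on opposite sides of 0 in the 2 groups under the same contrast, and whether the groups differed was not tested, since there was 1 library per genotype. Pfkfb3, which makes the activator of phosphofructokinase, had a log2 ratio of WT over CD169-DTR of 0.490 in macrophages and -0.116 in microglia. Mif had -0.317 in macrophages and 0.0495 in microglia for that contrast. For macrophages over microglia, Mif had -0.297 in the WT and 0.0689 in the CD169-DTR library, and Ldha had -0.193 and 0.0692.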

How the results depend on the processing

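The counts of members past 1.5-fold moved as follows. For members higher in macrophages than microglia, 7 as reported, a fold of 5/4 gave 11 and scaling the classes to an equal median gene, chosen after seeing the data, 13, and that scaling moved the other pathway genes from 9 to 14. For members higher in WT macrophages, 1 as reported, equal weight per cell gave 0, a fold of 5/4 5, 2-fold 0, the same weight per cluster 0 and free RNA subtracted with the untrimmed estimate (chosen after seeing the data) 3. For members lower in WT macrophages, 1 as reported, these were 2 with equal weight per cell, 3 in cells of 5000 to 10000 UMIs, 5 at a fold of 5/4 and 0 at 2-fold. For members higher in WT microglia, 1 as reported, free RNA subtracted, cells of 5000 to 10000 UMIs, 2-fold and the untrimmed estimate each gave 0. For members lower in WT microglia, 2 as reported, a fold of 5/4 gave 5, 2-fold 1, median-ratio scaling 1 and the untrimmed estimate 4. For tumor-associated-like over monocyte-like macrophages, 1 as reported, a fold of 5/4 gave 2, 2-fold 0 and the untrimmed estimate 2. For disease-associated-like over homeostatic-like microglia, 11 as reported, cells of 5000 to 10000 UMIs gave 5 and 2-fold 4. The causes of these changes were not tested, other than that another fold passes more or fewer members by construction. The count of members lower in macrophages, that of members with the same highest class and that of thinned shares stayed within 1.5 times the reported count under the alternatives run. Counting each single ratio once per alternative, 1283 values moved by less than their interval and 332 by more. No paired analysis was possible because each genotype had 1 library, and for the same reason no library could be left out. Members under about 100 UMIs in a class, such as Adm, Ankrd37 and Egln3, are limited by depth.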

Other observations

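Over the 19 clusters with 50 or more cells in each library, the members whose CPM followed each other most closely were the same pairs in both libraries for several genes. Hk2 was most like P4ha1, the pair that peaked in microglia, with Spearman's rho of 0.963 and 0.860 in the WT and CD169-DTR libraries. Pgam1 was most like Pkm, with 0.911 and 0.939, and Ndrg1 most like Ddit4, with 0.770 and 0.809. Hif1a was most like Egln3, with 0.707 and 0.777, and Mif most like Gapdh, with 0.760 and 0.828. The order of a member over the clusters had a rho between the 2 libraries of 0.704 to 0.984, except for Adm, with 0.175. The clusters share their library and differ in depth, so these correlations are descriptions of the clusters and carry no test.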
